A study of Cynoglossus semilaevis with 6 samples.

Results

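In livers of half-smooth tongue sole (Cynoglossus semilaevis), 62 genes were at least 1.5 times lower in every library of the low salinity group than in any library of the high salinity group. They were chosen by that pattern, out of 34751 features with a deposited value, 31619 of them RefSeq mRNA models. Each needed an RPKM (reads scaled to the length of the transcript and the depth of the library) of at least 1 in the lowest HS_L library, and that value had to be at least 1.5 times the highest LS_L value. Of 7344 mRNA models that met the minimum, 444 (6.05%) had every HS_L value above every LS_L value and 77 (1.05%) met the gap. Genes with a mean of 500 RPKM or more, genes on the W or Z chromosome, genes with HS_L_2 at 3 or more times both other HS_L libraries, and 5 features named in the rule were left out. Because the rule used the LS_L and HS_L values, the differences below describe the genes and carry no test.

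All fish were females, reared for 10 months at 30 ppt, 20 °C and 14 h of light to 10 h of dark. LS_L fish were brought to 15 ppt and HS_L fish stayed at 30 ppt, and the trial lasted 60 days. There were 3 libraries per group. Livers of several fish from 1 tank were pooled for each, and the spread between single fish was therefore not measured. Both groups came from the same farm and ate a compound feed during rearing. The study does not state the feed of the trial itself.

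The liver of a marine fish builds the plasma proteins, turns over amino acids, purines, fats and sugars, and clears foreign compounds by oxidising, conjugating and exporting them. It also makes secreted proteins of the innate immune defence. In many bony fishes it lies close to exocrine pancreas tissue, which can grow into it along the vessels. The genes are given below by these roles.

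Between 16176689 and 19428740 reads per library could be recovered from the RPKM values. Size factors, which correct for a few very abundant transcripts, lay between 0.868 for LS_L_3 and 1.204 for LS_L_1. Unless stated otherwise, values of single genes below are RPKM not divided by these factors. How close libraries of a group lay is therefore also given in RPKM, and division lowers LS_L_1 against LS_L_3. In RPKM, LS_L_1 was the highest LS_L library for 6342 of 9343 features tested, so for most features it was LS_L_1 that set the value the rule compared. Among the 62 genes themselves it was LS_L_1 for 23, LS_L_2 for 24 and LS_L_3 for 15. After division by the size factors, LS_L_3 was the highest LS_L library for 40 of the 62 and LS_L_1 the lowest for 44. Over the 9343 features tested, these counts were 3630 and 4097. The hepatocyte markers summed to between 56284 and 74638 RPKM in LS_L, against 74455 to 100818 RPKM in HS_L, with 11 of 15 features on the list tested and 2 at 0 in every library. Of those tested, 10 lay below 0, 1 above and 0 were called, with a median log2 fold change of -0.44. A large part of each sum came from apoa1b, with 29246, 45788 and 45201 RPKM in LS_L, against 39319, 51491 and 54561 RPKM in HS_L. Red blood cell markers stayed under 13 RPKM in every library, and 2 of 5 were at 0 throughout. The 2 tested were slc4a1a and rhag, with no hemoglobin, so the low values do not show how much blood the pools held. In pooled tissue, fewer cells of a type and less RNA per cell cannot be told apart.

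The median gap between the lowest HS_L and the highest LS_L library was 1.84 times, with a range of 1.505 to 17.2. A gap of at least 2 was found for 25 genes, a gap of at least 3 for 7, and 17 lay under 1.6. The LS_L mean over the HS_L mean had a median of 0.290 and ran between 0.0151 and 0.556. The median HS_L mean was 10.4 RPKM, beside 4.85 RPKM over the features tested, and 40 of the 62 genes lay above that level. The rule favours this, since it set a minimum in every HS_L library and took genes that were higher there. An HS_L mean over 100 RPKM was found for 6 genes and 22 were under 5 RPKM.

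**Figure D1:**
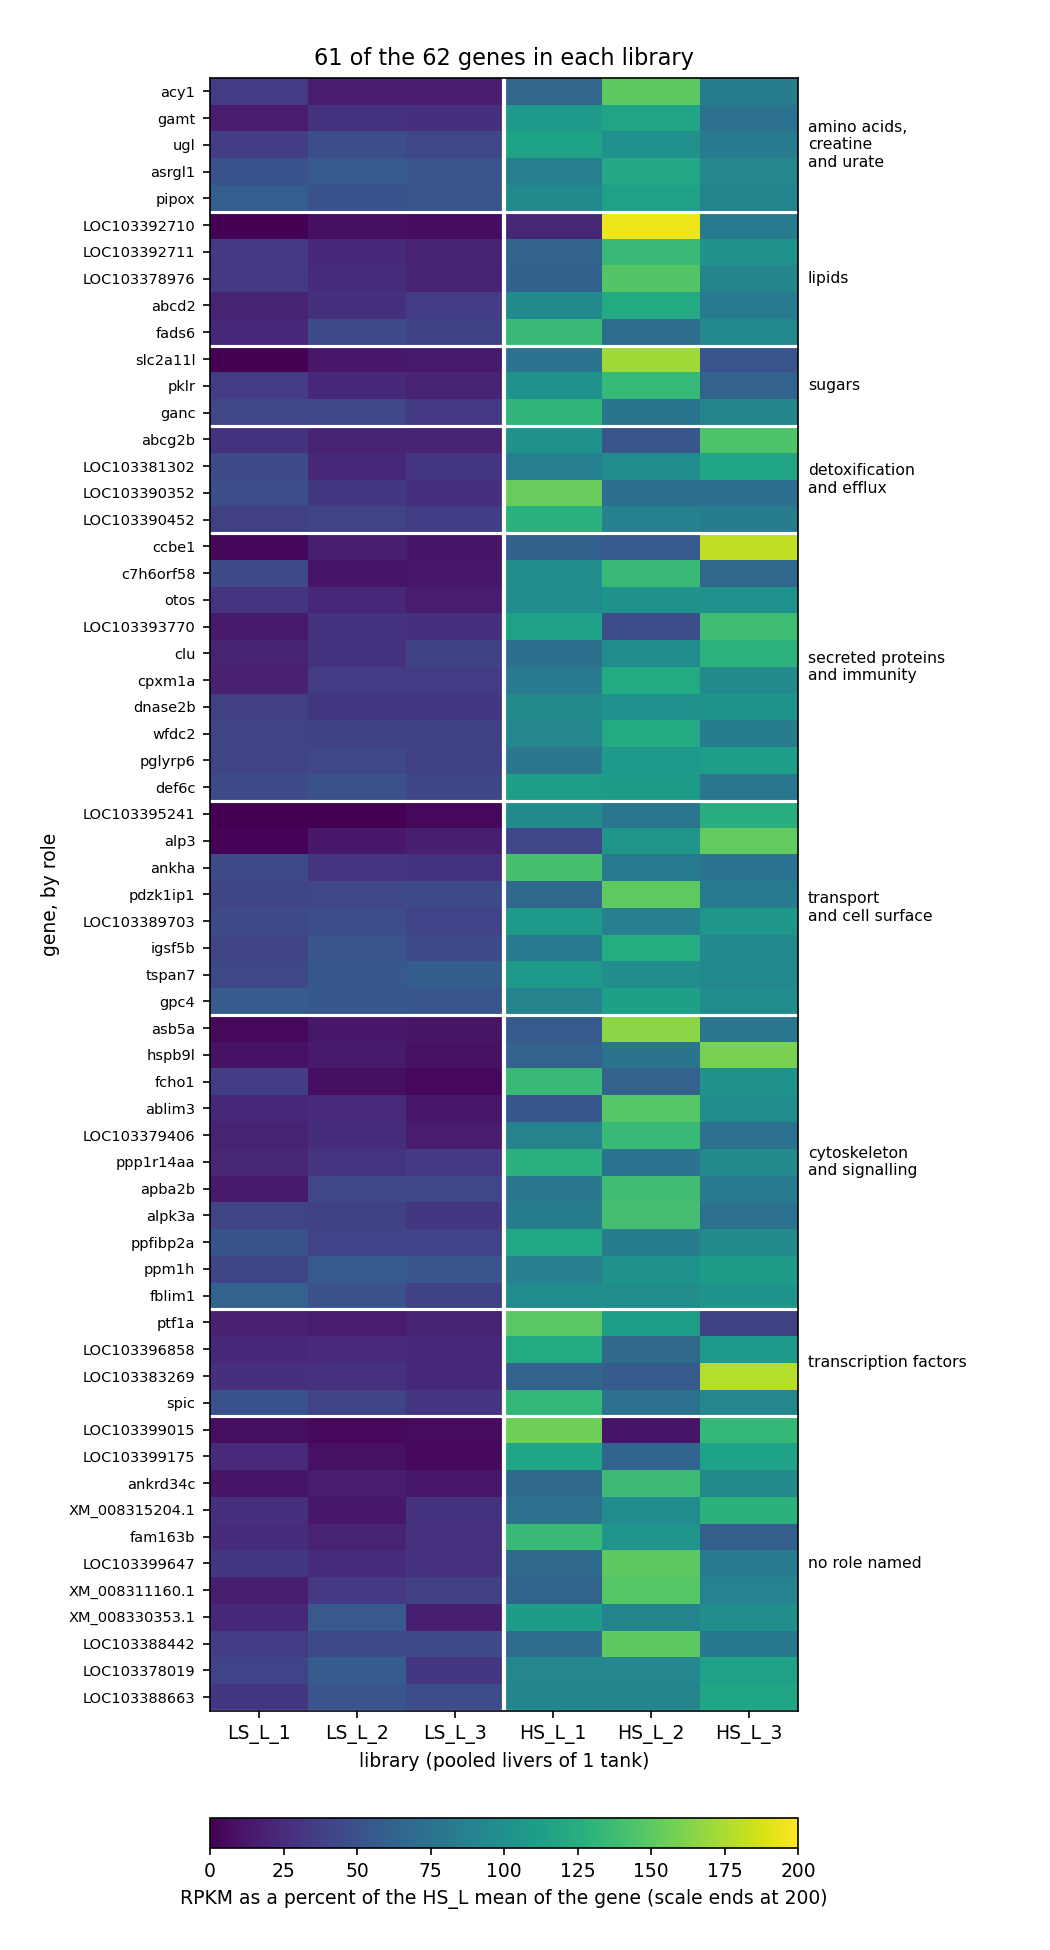
RPKM of 61 of the 62 genes (rows, grouped by role) in the 3 LS_L and 3 HS_L libraries (columns), as a percent of the HS_L mean of each gene. Every LS_L cell is darker than every HS_L cell of its row, which the rule fixed, while the brightest HS_L cell falls in different libraries. Over all 62 genes it is HS_L_2 for 27, HS_L_1 for 19 and HS_L_3 for 16 in RPKM.

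Whether the contrast as a whole passed a test was asked across all features with limma, on log2 of the scaled RPKM plus 1. Of 9343 features with a mean of at least 1 RPKM, 0 were called lower in LS_L and 4 higher. The 4 became 0 with the replicate number as a block, with no filter, and without LS_L_2, LS_L_3, HS_L_1 or HS_L_3, while 14 were called higher without LS_L_1 and 1 without HS_L_2. A call needed a log2 fold change beyond 1 in size together with an adjusted p (Benjamini-Hochberg) below 0.05. At an unadjusted p under 0.05 there were 267 lower and 347 higher, and limma-voom on the recovered reads also called 0 lower. Of the 62 genes, 58 were tested and 0 were called, beside a background of 0%. LOC103396858, XM_008315204.1, abcd2 and LOC103378019 were under the filter. The fitted log2 fold change had a median of -1.29 over the 58 and of 0.03 over all features tested. It was below -1 for 46 of them, beside 2.35% of all features, a share that the choice of the genes fixes. The pseudocount of 1 makes the fitted change of low genes smaller than the ratio of their means. The study tested counts of these libraries with DESeq2 at the same limits, and its list of differing genes holds 40 of the 62. Its test and limma therefore did not call the same genes. That list comes from the same reads and is no independent evidence of direction.

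**Figure D2:**
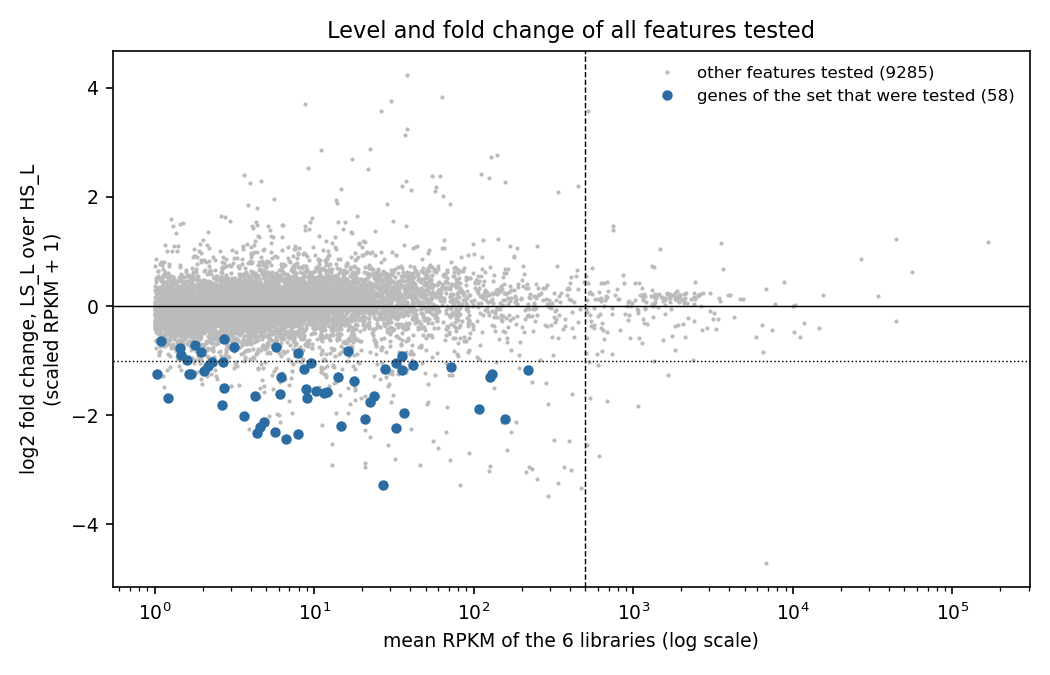
Fitted log2 fold change (LS_L over HS_L, scaled RPKM plus 1) against the mean RPKM of the 6 libraries on a log scale, for the 58 genes that were tested (blue) and the other features (grey). The blue points lie between -3.28 and -0.60, left of the dashed line at 500 RPKM that the rule set.

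Among the enzymes of amino acids, creatine and urate, 5 genes were in the set. gamt, guanidinoacetate N-methyltransferase, makes creatine in the last step of its synthesis, and lies on chromosome 2 at 6510831 to 6513956 (plus strand, assembly Cse_v1.0). It had 39.02, 74.4 and 68.98 RPKM in LS_L, against 274, 297 and 192 RPKM in HS_L. The group means were 60.8 ± 19.1 RPKM in LS_L and 254 ± 55.05 RPKM in HS_L (SD, n = 3 each), and the fitted log2 fold change was -2.06 ± 0.44 (SE). LS_L_1 was the lowest library by a wide margin, and the groups did not overlap. Its annotated span overlaps the start of dazap1 on the other strand by a short stretch.

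acy1, aminoacylase 1, frees amino acids from their N-acetylated forms, and had 11.8, 5.35 and 5.11 RPKM in LS_L, against 22.7, 51.2 and 28.7 RPKM in HS_L. Here the order within LS_L was the other way round, with LS_L_1 above both other libraries. The LS_L mean was 0.217 times the HS_L mean. ugl, named in RefSeq as ureidoglycolate lyase, an enzyme of the breakdown of urate past allantoin, is described in the study's table as malate synthase-like, and the 2 descriptions were not reconciled here. It had 18.2, 24.03 and 21.3 RPKM in LS_L, against 57.9, 50.5 and 41.2 RPKM in HS_L. All 3 LS_L libraries were close together in RPKM.

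pipox, peroxisomal sarcosine and pipecolate oxidase, had 12.6, 10.6 and 11.04 RPKM in LS_L, against 20.1, 24.1 and 19.01 RPKM in HS_L, and was the gene nearest to the threshold, at a gap of 1.505. asrgl1, an asparaginase that also removes isoaspartyl residues, had 3.82, 4.297 and 4.002 RPKM in LS_L, against 6.55, 9.13 and 7.02 RPKM in HS_L. Both were nearly level within LS_L in RPKM. Of 32 tested features on the list of amino acid and creatine metabolism, 17 were above 0 and 15 below, 0 were called, and the median log2 fold change was 0.01 beside 0.03 over all features. On the purine breakdown list 7 were tested, 2 lay above 0, 5 below and 0 were called, with a median log2 fold change of -0.06. The study had picked 2 of the 19 features listed from these same libraries. uox, the urate oxidase that acts ahead of ureidoglycolate lyase, was kept out by its level: it had 55.5, 221 and 231 RPKM in LS_L, against 679, 794 and 1115 RPKM in HS_L. allc, on the same list, had 39.0, 114 and 102 RPKM in LS_L, against 51.2, 40.4 and 60.2 RPKM in HS_L, where the groups overlapped. Its fitted log2 fold change was 0.62.

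6 genes act on lipids. LOC103392710 and LOC103392711 are 2 neighbouring genes described as acyl-CoA synthetase family member 2, mitochondrial-like, an enzyme that activates fatty acids. They lie in a row on the plus strand of chromosome 17, at 3556669 to 3561165 and 3561327 to 3567284, with 161 bases and no other gene between them. They were the only adjacent pair in the set. How alike their sequences are was not checked, and closely alike copies can split or lose reads in counting.

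LOC103392710 had 0.116, 0.683 and 0.544 RPKM in LS_L, against 1.77, 16.1 and 6.900 RPKM in HS_L, and LOC103392711 had 3.304, 2.24 and 1.83 RPKM in LS_L, against 6.15, 13.05 and 9.84 RPKM in HS_L. HS_L_2 was the highest library for both and HS_L_1 the lowest of HS_L for both. Within LS_L they went opposite ways, LS_L_1 being lowest for the first and highest for the second.

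LOC103378976, phospholipase D1-like, releases phosphatidic acid from phosphatidylcholine and had 12.1, 9.12 and 6.703 RPKM in LS_L, against 21.95, 51.6 and 32.1 RPKM in HS_L. fads6, of the fatty acid desaturase family, had 5.96, 12.1 and 9.98 RPKM in LS_L, against 35.1, 18.7 and 24.2 RPKM in HS_L. abcd2, a peroxisomal carrier of very long chain acyl-CoA, was low throughout, with 0.268, 0.366 and 0.499 RPKM in LS_L, against 1.303, 1.67 and 1.14 RPKM in HS_L. The list of fatty acid activation and oxidation had 16 features tested, 11 above 0, 5 below and 0 called, with a median of 0.12. 3 of the 5 below 0 were in the set: the acyl-CoA synthetase pair and ugl, which the list holds by its malate synthase-like description.

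Of the 3 sugar genes, pklr, the pyruvate kinase of liver and red cells, stood highest. It closes glycolysis, and its name rests on position, since the study's table calls it PKM-like. pklr had 59.98, 39.4 and 34.3 RPKM in LS_L, against 174, 228 and 109 RPKM in HS_L, with means of 44.6 ± 13.6 RPKM in LS_L and 170.2 ± 59.5 RPKM in HS_L (SD, n = 3 each). LS_L_1 was the highest LS_L library. slc2a11l, a sugar carrier of the GLUT family, had 0.283, 6.84 and 6.94 RPKM in LS_L, against 37.3, 83.98 and 25.8 RPKM in HS_L, with a fitted log2 fold change of -3.28 ± 0.86 (SE), which was -2.34 without LS_L_1. LS_L_1 was close to 0 and the HS_L libraries differed by more than 3 times. ganc, neutral alpha-glucosidase C, had 5.33, 5.29 and 4.18 RPKM in LS_L, against 16.2, 9.65 and 11.4 RPKM in HS_L. Of 12 glycolysis and gluconeogenesis features tested, 6 were above 0 and 6 below, and 0 were called.

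**Figure D3:**
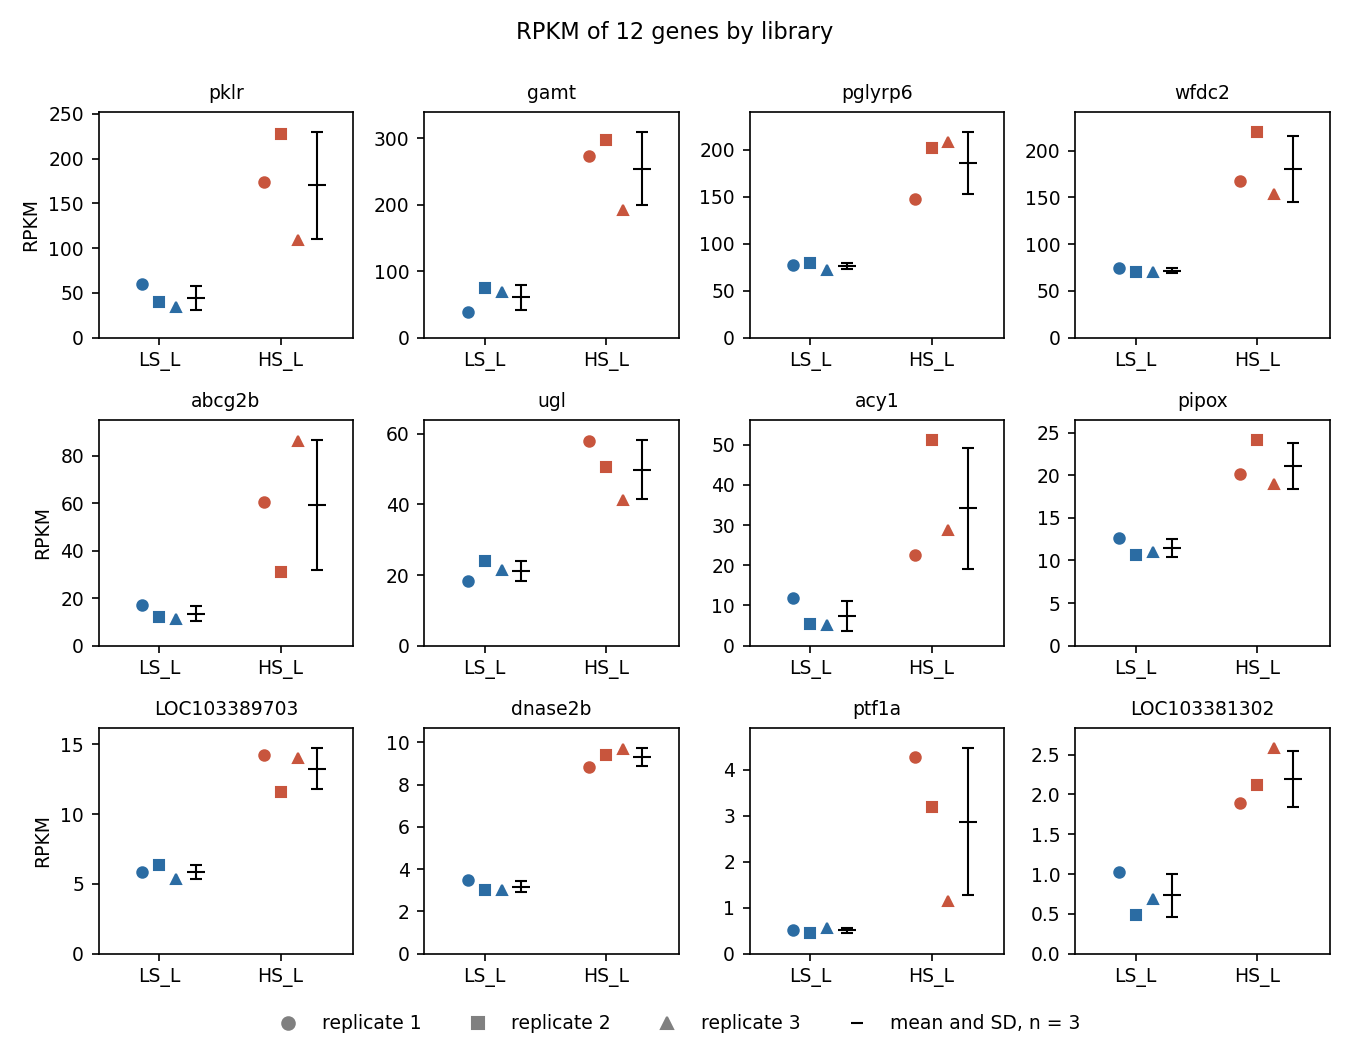
RPKM of 12 genes by library, LS_L at the left and HS_L at the right of each panel, with the mean and SD of 3 libraries as a black bar. In these RPKM values, not divided by size factors, wfdc2, pglyrp6 and dnase2b are tight within LS_L, while pklr, abcg2b, acy1 and ptf1a spread widely within HS_L.

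In detoxification and efflux, abcg2b, an ATP-driven exporter that pumps urate and many drugs out of cells in mammals, had 17.2, 11.9 and 11.3 RPKM in LS_L, against 60.4, 31.2 and 86.00 RPKM in HS_L. HS_L_2 was the lowest HS_L library here. LOC103381302, cytochrome P450 2K1-like, oxidises lipids and foreign compounds and had 1.02, 0.4902 and 0.687 RPKM in LS_L, against 1.89, 2.11 and 2.58 RPKM in HS_L. All 3 features on the cytochrome P450 family 2 list had every HS_L above every LS_L value, beside 5.16% of all features tested, and 0 were called. That list was matched by description, and so holds only genes that the study had picked from these libraries. The 3 therefore do not describe the family.

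LOC103390352, UDP-glucuronosyltransferase 2A1-like, attaches glucuronic acid to bile pigments, steroids and drugs. The listed variant X3 had 9.91, 6.67 and 5.68 RPKM in LS_L, against 31.8, 15.2 and 15.1 RPKM in HS_L. Another listed transcript of the same gene had 3.07, 21.05 and 20.4 RPKM in LS_L, against 2.55, 59.97 and 7.67 RPKM in HS_L, where the groups overlapped. A further transcript of it had 0 reads in every library. LOC103390452, gamma-glutamyltransferase 5-like, an enzyme of glutathione turnover, had 1.07, 1.16 and 1.04 RPKM in LS_L, against 3.59, 2.47 and 2.36 RPKM in HS_L.

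10 genes encode secreted proteins or proteins of immunity. pglyrp6, a peptidoglycan recognition protein with amidase activity against bacterial walls, had 76.8, 79.1 and 72.2 RPKM in LS_L, against 148, 201 and 208 RPKM in HS_L, and lies on chromosome 17 at 16285708 to 16287629. wfdc2, a small secreted protein with a WAP domain (a fold found in protease inhibitors), had 74.4, 69.98 and 70.7 RPKM in LS_L, against 167, 219.9 and 153 RPKM in HS_L. For both, the LS_L libraries agreed closely in RPKM. Division by the size factors set LS_L_1 lowest and LS_L_3 highest for both, so they lay further apart after scaling. def6c, a guanine nucleotide exchange factor of lymphocytes in mammals, had 24.9, 28.4 and 24.01 RPKM in LS_L, against 63.99, 61.9 and 44.9 RPKM in HS_L.

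c7h6orf58, a relative of the zebrafish liver-enriched gene leg1, had 23.5, 6.09 and 6.77 RPKM in LS_L, against 52.4, 72.2 and 35.4 RPKM in HS_L. It was 1 of the 3 genes just inside the threshold, since LS_L_1 was far above both other LS_L libraries. LOC103393770, CD209 antigen-like, a lectin of immune cells, had 2.15, 4.26 and 4.04 RPKM in LS_L, against 16.7, 6.98 and 20.2 RPKM in HS_L. clu, the extracellular chaperone clusterin, had 3.699, 5.47 and 7.35 RPKM in LS_L, against 13.7, 18.04 and 24.01 RPKM in HS_L. dnase2b, an acid DNase, had 3.500, 3.03 and 2.999 RPKM in LS_L, against 8.84, 9.41 and 9.66 RPKM in HS_L. Its RPKM values were close together in both groups.

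ccbe1, needed for growth of lymph vessels, had 0.199, 1.09 and 0.782 RPKM in LS_L, against 4.06, 3.82 and 11.97 RPKM in HS_L, a gap of 3.52, with HS_L_3 far above the others. Endothelium and stroma markers summed to 77.5, 44.0 and 36.1 RPKM in LS_L, against 259, 67.3 and 31.9 RPKM in HS_L, and 6 of 13 were at 0 throughout. otos, otospiralin, known from the inner ear, had 2.11, 1.57 and 1.102 RPKM in LS_L, against 6.77, 7.103 and 7.0 RPKM in HS_L. Its HS_L libraries were almost equal in RPKM. cpxm1a, a secreted carboxypeptidase-like protein, had 2.89, 5.56 and 5.65 RPKM in LS_L, against 12.8, 19.4 and 15.2 RPKM in HS_L. On the innate immunity and acute phase list, 17 features were tested, 12 lay below 0 and 5 above, and 0 were called, with a median log2 fold change of -0.31. The study had picked 4 of the 20 features listed from these same libraries. pglyrp6 and LOC103393770 are among the 12, so the list is no independent evidence of direction. Among the 5 was pglyrp2, which went the other way from pglyrp6 with no overlap. It had 89.3, 115 and 120 RPKM in LS_L, against 71.3, 42.9 and 61.5 RPKM in HS_L. Leukocyte markers summed to 1786, 414 and 440 RPKM in LS_L, against 880, 288 and 566 RPKM in HS_L, and these sums overlapped between the groups. Of 11 tested features, 4 lay below 0. Most of each sum came from cd74a, with 1627, 372 and 397 RPKM in LS_L, against 748, 257 and 521 RPKM in HS_L.

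Among carriers and proteins of the cell surface, 8 genes were found. LOC103395241, described as olfactory receptor 24-like, had the widest gap, 17.2. It had 0, 0 and 0.109 RPKM in LS_L, which is 2 reads in all, against 2.29, 1.88 and 3.03 RPKM and 121 reads in HS_L. The ratio of the normalized reads was 0.0160, with an exact 95% interval of 0.00192 to 0.0591 that covers counting error only. The interval pools the reads of each group, and the gene was chosen by these same values, so it is no test of a difference. Every LS_L library was at or under 3 reads, and no other gene of the set was that low.

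LOC103389703, a GABA transporter 2-like protein of the family that also carries taurine and betaine, had 5.82, 6.37 and 5.37 RPKM in LS_L, against 14.2, 11.6 and 14.00 RPKM in HS_L. Its libraries lay close together in both groups in RPKM. The organic osmolyte list had 6 features tested, 4 below 0 and 2 above, and 0 were called. The study had picked 3 of the 18 features listed from these same libraries. pdzk1ip1, a small membrane protein that binds PDZ scaffold proteins, had 42.1, 42.8 and 44.1 RPKM in LS_L, against 68.1, 151 and 82.4 RPKM in HS_L, with HS_L_2 well above the rest. tspan7, a tetraspanin, had 20.2, 25.3 and 27.2 RPKM in LS_L, against 50.2, 45.7 and 43.4 RPKM in HS_L.

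igsf5b, an adhesion protein of cell junctions, had 18.3, 23.5 and 20.4 RPKM in LS_L, against 36.5, 54.9 and 41.4 RPKM in HS_L. alp3, alkaline phosphatase-like, had 0.0847, 0.636 and 0.805 RPKM in LS_L, against 2.03, 5.03 and 7.21 RPKM in HS_L, with LS_L_1 lowest. ankha, which exports pyrophosphate, had 1.79, 1.204 and 1.16 RPKM in LS_L, against 5.64, 3.27 and 3.01 RPKM in HS_L. gpc4, a glypican that carries heparan sulfate, had 2.04, 1.91 and 1.85 RPKM in LS_L, against 3.12, 3.92 and 3.397 RPKM in HS_L, the smallest change of the set by means, at 0.556.

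11 genes act in the cytoskeleton, in adaptors or in signalling, with HS_L means from 1.901 to 18.1 RPKM. hspb9l, a small heat shock protein, had 1.01, 1.44 and 0.896 RPKM in LS_L, against 6.46, 7.92 and 16.4 RPKM in HS_L, a gap of 4.47. asb5a, an adaptor of ubiquitin ligases, had 0.0869, 0.245 and 0.194 RPKM in LS_L, against 1.07, 3.14 and 1.49 RPKM in HS_L, on 13 reads in LS_L and 139 reads in HS_L. LOC103379406, microtubule-associated protein 1S-like, had 0.551, 0.718 and 0.411 RPKM in LS_L, against 2.46, 3.72 and 2.07 RPKM in HS_L. In all 3 the lowest HS_L library was at least 2.88 times the highest LS_L library.

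ppp1r14aa, an inhibitor of myosin phosphatase, had 3.94, 5.52 and 5.96 RPKM in LS_L, against 23.1, 13.8 and 17.3 RPKM in HS_L. fcho1, which starts clathrin-coated pits, had 3.06, 0.698 and 0.368 RPKM in LS_L, against 11.2, 5.23 and 8.58 RPKM in HS_L, with LS_L_1 above both other LS_L libraries. ablim3, which binds actin, had 1.02, 1.12 and 0.584 RPKM in LS_L, against 2.53, 6.74 and 4.45 RPKM in HS_L. alpk3a, a kinase known from heart muscle, had 0.8499, 0.829 and 0.665 RPKM in LS_L, against 1.77, 2.94 and 1.56 RPKM in HS_L, and ppfibp2a, of the liprin family, had 1.29, 1.004 and 1.01 RPKM in LS_L, against 2.97, 2.11 and 2.39 RPKM in HS_L. alpk3a, ppfibp2a, apba2b, fblim1 and ppm1h had gaps from 1.53 to 1.88 and LS_L means from 0.332 to 0.505 times the HS_L means. Skeletal muscle markers summed to 42.2, 1.97 and 2.06 RPKM in LS_L, against 66.1, 38.3 and 5.12 RPKM in HS_L, with 5 of 6 tested features below 0 and 3 of 17 at 0 in every library. Their part in these values was not tested.

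4 genes encode transcription factors. ptf1a, which drives the exocrine pancreas programme, had 0.519, 0.439 and 0.555 RPKM in LS_L, against 4.28, 3.19 and 1.14 RPKM in HS_L, and lies on chromosome 20. In RPKM, all 3 LS_L values were nearly equal, and HS_L_1 was highest. HS_L_1 and HS_L_2 held 77 and 68 reads, and division by their size factors of 1.093 and 0.938 puts HS_L_2 slightly above HS_L_1. The exocrine pancreas list summed to 202, 175 and 139 RPKM in LS_L, against 1012, 3495 and 342 RPKM in HS_L, and 7 of 7 tested features lay below 0 with 0 called and a median of -2.41. Only 2 of the 7 had every HS_L value above every LS_L value, beside 5.16% of all features tested. These were ptf1a, by the rule, and amylase, which gave 294 of the 342 RPKM in HS_L_3. The other features tested overlapped between the groups, such as prss1 with 28.7 RPKM in HS_L_3 and 52.6 RPKM in LS_L_2. Of the 8 features listed, 6 had been picked from these same libraries by the study, so the list is no independent evidence of direction. In RPKM, the order of its sum within HS_L (HS_L_2, then HS_L_1, then HS_L_3) differed from that of ptf1a. On the list, prss1, cel.2, LOC103394162 and cpb1 had the order of the sum. LOC103387723 had the order of ptf1a, with 13.4, 7.53 and 1.85 RPKM in HS_L, and amylase had neither. The part of pancreas tissue in the values of the other genes was not tested.

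**Figure D4:**
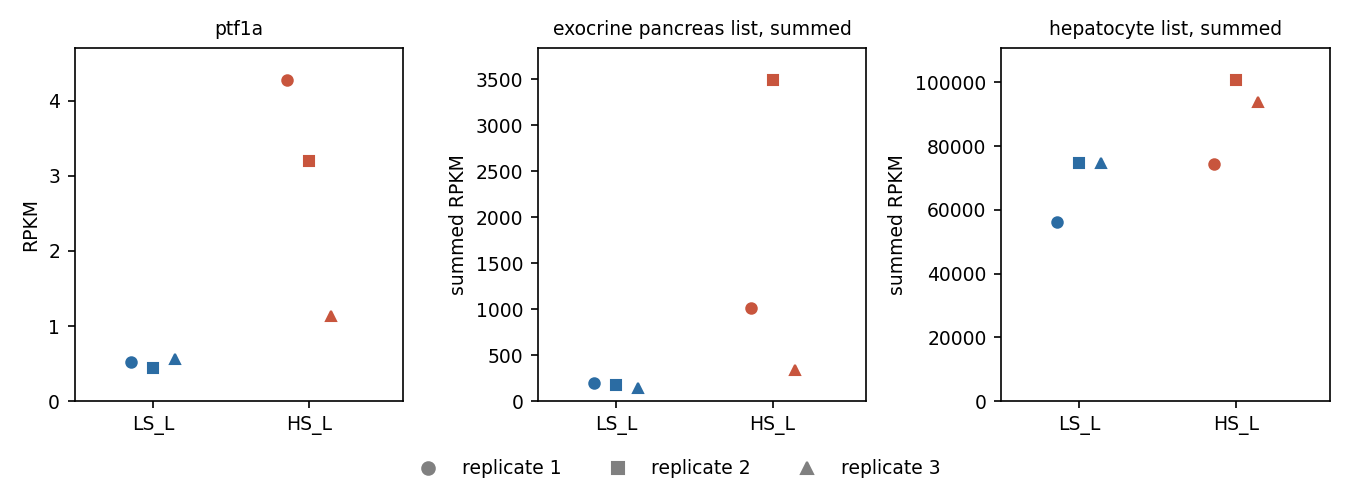
RPKM of ptf1a, and summed RPKM of the exocrine pancreas and hepatocyte marker lists, in 3 LS_L libraries (left) and 3 HS_L libraries (right) of each panel, 1 point a library. The pancreas sum is highest in HS_L_2 at 3495, ptf1a is highest in HS_L_1 at 4.28, and the hepatocyte sums lie between 56284 and 100818. In HS_L_3 the pancreas sum is 342, of which amylase gives 294.

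spic, an ETS factor of macrophages in mouse, had 0.787, 0.6403 and 0.467 RPKM in LS_L, against 2.08, 1.19 and 1.45 RPKM in HS_L. LOC103396858 and LOC103383269 are described as zinc finger proteins. LOC103396858 had 0.369, 0.3901 and 0.3703 RPKM in LS_L, against 1.98, 1.13 and 1.76 RPKM in HS_L, and LOC103383269 had 3.78, 4.04 and 3.22 RPKM in LS_L, against 9.06, 8.300 and 25.2 RPKM in HS_L, with HS_L_3 far above the others.

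11 genes have no role given here. LOC103388442 was the most abundant gene of the whole set, with 110.1, 137 and 142 RPKM in LS_L, against 215, 461 and 251 RPKM in HS_L. ankrd34c, an ankyrin repeat protein, had 1.57, 2.08 and 1.84 RPKM in LS_L, against 9.64, 19.1 and 13.1 RPKM in HS_L and the second widest gap, 4.64. LOC103399175, described as putative protein TPRXL, had 1.99, 0.758 and 0.387 RPKM in LS_L, against 9.64, 5.33 and 9.47 RPKM in HS_L, and LOC103399015, GRAM domain-containing protein 3-like, had 0.938, 0.587 and 0.743 RPKM in LS_L, against 19.6, 1.41 and 16.8 RPKM in HS_L. For the last gene HS_L_2 alone lay close to LS_L and brought the gap down to 1.51. LOC103388663 and XM_008311160.1 had HS_L means of 38.6 and 36.8 RPKM. fam163b had 0.819, 0.615 and 0.924 RPKM in LS_L, against 4.44, 3.41 and 1.98 RPKM in HS_L. Together with XM_008315204.1, LOC103399647, XM_008330353.1 and LOC103378019 it made a group with HS_L means from 1.32 to 3.36 RPKM.

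The HS_L library with the highest value was HS_L_2 for 27 genes in RPKM, beside 2085 of 9343 features tested. After division by the size factors it was HS_L_2 for 35 genes, HS_L_1 for 8 and HS_L_3 for 19, beside 3271, 3020 and 3052 features tested. In RPKM, LS_L_1 was at least 1.5 times under both other LS_L libraries for 12 genes, among them gamt, slc2a11l, fads6, ccbe1 and alp3. In 6 of these 12, HS_L_2 was also at least 1.5 times above both other HS_L libraries. In 5 genes, pklr, acy1, c7h6orf58, fcho1 and LOC103399175, LS_L_1 was instead the highest LS_L library by at least 1.5 times in RPKM. For pklr the LS_L reads were 1809, 1266 and 1160. Division by the size factors of 1.204, 0.9995 and 0.868 brings these closer together. The orders at 1.5 times were counted in RPKM only, not after scaling. All these orders were counted after the values were seen. Both groups stayed within 1.5 times in RPKM for 12 genes, among them wfdc2, pglyrp6, ugl and pipox.

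**Figure D5:**
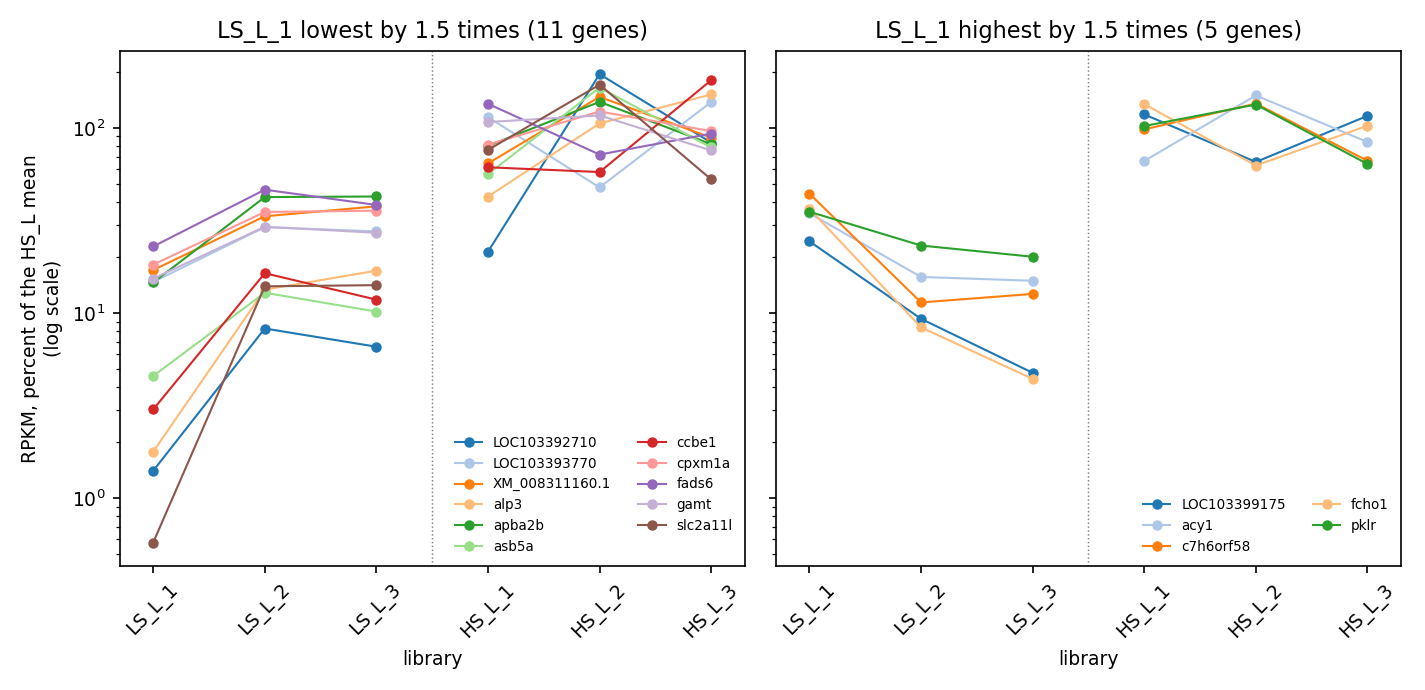
RPKM as a percent of the HS_L mean (log scale) in each library for 11 of the 12 genes with LS_L_1 lowest (left panel) and the 5 genes with LS_L_1 highest (right panel) by at least 1.5 times. Lines join the values of 1 gene within a group and stand for no order, and slc2a11l comes nearest to 0 in LS_L_1.

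Just outside the threshold lay XM_008332328.1, ripply2 and LOC103379570, with gaps of 1.491, 1.489 and 1.484, against 1.505 for pipox and 1.507 for c7h6orf58 and LOC103399015 just inside. After division by the size factors, every HS_L value stayed above every LS_L value for all 62 genes, and 48 kept a gap of at least 1.5. The share over the features tested was 4.94% (5.16% before scaling), while that of the 62 was largely fixed by their choice. The smallest gap after scaling was 1.002, for LOC103388442, and that of pdzk1ip1 was 1.019. Under the same rule the scaled values gave 61 genes, of which 44 were shared. The rule turned round, with LS_L above HS_L, found 37 genes. It set no limit on a single library and left out no feature by name, so 37 and 62 are not like for like.

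The genes were spread over the genome. All 20 autosomes held at least 1, 3 genes were on unplaced scaffolds, and chromosomes 1 and 14 held 6 each. Set against the features tested there, these were 0.955% on chromosome 1 and 1.18% on chromosome 14, while the 5 on chromosome 2 were 1.21%. On either strand, 53 genes overlapped no other feature, leaving aside tRNA rows that span many copies. The other 9 did, among them gamt, ganc, fcho1, ankha, fads6, LOC103383269, LOC103390352 and LOC103388442, and their reads could be shared or lost.

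A further deposited measure, the FPKM (fragments scaled like RPKM) of assembled transcripts, comes from the same reads and is no independent check. A transcript start was listed in all 6 libraries for 23 genes. Every HS_L value was above every LS_L value for 16 of these, beside 3.4% of 9415 transcripts listed in all 6 libraries. Of the 7 genes where this did not hold, LOC103399175, dnase2b, ablim3 and LOC103390452 had an FPKM of 0 in at least 1 HS_L library. ugl had 4.71, 6.98 and 6.28 FPKM in LS_L, against 25.4, 23.97 and 16.7 FPKM in HS_L, a clear separation. The other 3, LOC103399647, ppm1h and otos, overlapped between groups. For ppm1h the values were 6.21, 8.80 and 7.53 FPKM in LS_L, against 7.25, 9.92 and 14.1 FPKM in HS_L.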

How the data were processed

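Cleaned reads were mapped by the authors (TopHat, tongue sole assembly). They dropped reads mapping to several places, counted the rest with HTSeq (union mode) and deposited RPKM per feature. Their deposited feature table holds a signal per group (mean reads over size factors) with positions and lengths. Per library they deposited FPKM of assembled transcripts, by a tool not given in the sources used here. The submitters' processing notes name TopHat2 2.0, Bowtie2 2.0.6 and DESeq.

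RPKM times length was a whole multiple of 1 step (within 0.05 reads) for 99.9% of values of each library, which gave reads and median-of-ratios size factors. The authors' group means were met within 0.1% for 99.99% of features. The study tested counts, while the values here are RPKM. Therefore limma 3.58.1 (R 4.3.3; lmFit, eBayes with trend and robust) was run on log2(scaled RPKM + 1), with Benjamini-Hochberg adjustment. Its code was also run on simulated counts with known changes, drawn independently for each feature. That run checks the code only and does not show how well the fit suits these libraries. Python 3.11.15 with pandas 2.3.3 and matplotlib 3.10.9 did the rest. The strand setting of the counting is not given in the sources used here.

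Of the 62 genes, 28 were named by RefSeq accession, 18 by the study's table, 13 by position (overlap of at least 0.5) and 3 not at all. The genes and lists were chosen with earlier results of these data known. Genes described singly are those with the 10 widest gaps, the 10 highest HS_L means, the 3 just inside and the 3 just outside the threshold, those on a list or in the study's tables, and neighbours. Further genes (asrgl1, fads6, abcd2, clu, igsf5b, tspan7, gpc4 and spic among them) were added after their values were seen, so that each has its role. Promoter sequences were not used here, and the values of 1 gene are not reported here.

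Same-numbered libraries correlated at 0.173, 0.165 and 0.232 after subtraction of group means, and crossed pairs at 0.166, 0.221 and 0.122 and at -0.457, -0.273 and -0.355. All 3 same-numbered values were over 0.1, but so were the crossed pairs at 0.166, 0.221 and 0.122, so the values do not single out the same-numbered pairs. The main fit used no pairing. The replicate number, taken from the sample labels, entered only as a block in an alternative fit, and the study names nothing that same-numbered tanks shared. Alternatives were library size only, another pseudocount, other filters, limma-voom, a replicate block, other limits of the rule and each library left out.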

Additional observations from a re-analysis of the deposited data

How the results depend on the processing

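All 669 fitted values of single genes under the 12 alternatives to the fit kept their direction. The choice of the genes fixed that direction, since every HS_L value lay above every LS_L value before and after scaling. In size, 49 of the values moved by more than the spread between replicates. Features called lower in LS_L by limma numbered 1 with library size only (ankrd34c, adjusted p = 0.0479) and 0 to 3 with a library left out. LOC103399175 and fcho1 were called without LS_L_1 (adjusted p = 0.0439 and 0.0398) and LOC103399015 without HS_L_2 (adjusted p = 0.0254), calls made in the contrast that chose them. Features called higher numbered 9 with library size only, 0 with no filter and 0 to 14 with a library left out, 14 being without LS_L_1. With the replicate number as a block, 0 were called lower and 0 higher, against 4 without the block, and the lowest adjusted p among lower features was 0.134 in limma. The median log2 fold change of the genes was -1.73 with a pseudocount of 0.1, -1.79 with limma-voom, -1.29 with the block and between -1.52 and -1.17 with a library left out. The rule gave 143 genes at the smaller of the alternative gaps, 25 at a gap of 2, 37 with HS_L values of at least 5 RPKM, and 67 to 201 with a library left out, where fewer libraries make it easier to meet. It gave 201 without LS_L_1, 101 without LS_L_2, 127 without HS_L_1, 136 without HS_L_2 and 170 without HS_L_3. Low levels limit the ratios, since 9 genes had under 50 reads over the LS_L libraries.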

Other observations

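Some genes met the gap but not the other limits of the rule. The abundant ahsg2, a fetuin of blood plasma, had 420, 480 and 398 RPKM in LS_L, against 1087, 2847 and 1207 RPKM in HS_L, and LOC103379545, cytochrome P450 2F2-like, had 217, 264 and 271 RPKM in LS_L, against 900, 669 and 895 RPKM in HS_L. The groups did not overlap for either gene. Of the 77 genes that met the gap, 4 were left out for their level, 3 for HS_L_2 and 5 for lying on W or Z. slc16a5a, of the monocarboxylate carrier family, was left out for HS_L_2, with 0.441, 0.589 and 0.579 RPKM in LS_L, against 1.07, 4.47 and 1.19 RPKM in HS_L.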
